A study of Homo sapiens with 26 samples.

Results

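The genes described here are 38 genes of synaptic vesicles, vesicle fusion and the neuronal cytoskeleton, together with RNA-binding proteins, transcription factors and enzymes that are typical of neurons. They were listed by symbol, with earlier results of these data known. All 38 were found among the 19128 genes of each knockout table and the 19117 genes of the parental table. RNA was sequenced in 14 human small cell lung cancer lines, and the study tested what the loss of the transcription factor POU2F3 does in 4 of them. Those 4 lines, COR-L311, NCI-H526, NCI-H1048 and NCI-H211, received by lentivirus a guide RNA, which was either sgNeg, the control, or 1 of the pair that targets POU2F3 (sgPOU2F3). NCI-H1048 and NCI-H211 were harvested on day 4 after infection, and COR-L311 and NCI-H526 on day 5. The parental lines were uninfected and in exponential growth, 1 library per line, and comprised these 4 lines and 10 others: DMS114, DMS79, NCI-H128, NCI-H146, NCI-H446, NCI-H510, NCI-H524, NCI-H69, NCI-H82 and NCI-H889. NCI-H1048 grew in HITES medium and NCI-H128 in RPMI with more serum than the other lines, which grew in RPMI or HITES. The deposited knockout values combine both POU2F3 guides in a single column beside that of sgNeg, so that a line has 1 value per arm and no error within the line. The replicate is the line throughout.

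Neurons and neuroendocrine cells store transmitters and peptides in vesicles and release them by regulated fusion with the plasma membrane. Synaptotagmins sense calcium, the SNARE proteins VAMP2, SNAP25 and STX1A pull the membranes together, and complexins clamp the assembled complex. Small cell lung cancer is mostly a neuroendocrine tumour that makes many of these proteins, whereas the lines that depend on POU2F3 resemble tuft cells, chemosensory cells of the airway and gut epithelium. In cells that are not neuronal, the repressor REST binds RE1 elements and silences many neuronal genes, and INSM1 and NEUROD1 are transcription factors of neuroendocrine cells.

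The authors' values are FPKM, fragments per kilobase of transcript and per M mapped fragments, so levels of different genes can be set side by side. The depth of the libraries, estimated from the smallest steps between values, was 9.77 to 15.5 M fragments for sgNeg, 18.6 to 29.5 M for the combined sgPOU2F3 columns and 9.77 to 32.4 M for the parental lines. An FPKM of 0.1 on a 2 kb transcript then stands for 1.95 to 6.47 fragments. Genes listed at 0 made up 18.28% to 21.53% of the sgNeg columns and 13.82% to 15.9% of the sgPOU2F3 columns. Of 8 tuft cell markers, the 4 knockout lines had 6 to 8 at an FPKM of 1 or more, with summed levels of 542.7 to 1137.4, and the 10 other lines had 0 to 5, with sums of 1.656 to 32.07. The 8 include POU2F3 itself, so part of this difference is that of POU2F3. Of 9 neuroendocrine markers the knockout lines had 2 to 6, with sums of 34.51 to 469.9, and the other lines 5 to 9, with sums of 33.6 to 2929.3. DMS114 also carried 5 of 6 fibroblast markers at an FPKM of 1 or more, led by COL3A1 at 511.6, and NCI-H446 had the endothelial gene CDH5 at 63.78. The part of these markers in the results below was not tested. In a bulk library, fewer cells with a transcript and less of it per cell cannot be told apart.

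The neuronal genes spanned a wide range of levels across the 14 parental lines. UCHL1, a ubiquitin hydrolase of neurons, had the highest median FPKM over the lines, 553.7, and was at 78.56 or more in all 14. BEX1, a small adaptor protein of neural tissue, had a median of 272.6. ENO2, the neuronal enolase, followed at 139.7, KIF1A, a kinesin that carries vesicle precursors along axons, at 138.5, and TUBB3, the neuronal beta-tubulin, at 125.9. These 5 genes, VAMP2 and STMN3 were the 7 at an FPKM of 10 or more in every line, and 12 of the 38 were at 1 or more in every line. The lowest medians were those of STMN4 at 0.139, DCX at 1.54, RAB3C at 1.82, DDC at 2.46 and NEFM at 3.08. DDC, the aromatic amino acid decarboxylase, nevertheless reached 283.2 in NCI-H146, and NEFM, a neurofilament subunit, reached 195.5 in NCI-H82.

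The lines were ordered by the median of log2(FPKM + 1) over the 38 genes. NCI-H211 was lowest at 0.33, NCI-H1048 followed at 0.71 and DMS114 at 2.17. NCI-H526 stood at 3.81 and COR-L311 at 3.84, and the other 9 lines lay between 4.35 in NCI-H510 and 5.66 in NCI-H146. The 4 lines chosen for knockout were therefore of unlike levels: 15 of the 38 genes were at an FPKM of 1 or more in NCI-H211 and 17 in NCI-H1048, against 29 in NCI-H526 and 35 in COR-L311. Of all genes, 58.58%, 61.69%, 63.6% and 60.45% were at that level in these lines, in the same order. In NCI-H1048 and NCI-H211 alike, 19 genes stayed under an FPKM of 1, and the same 19 did so in the sgNeg columns of these lines. They included SYP, SYN1, SYN2, SYT4, SYT5 and SYT11 of the vesicle, CPLX2 and RIMS2 of the release site, and DCX, NEFL and NEFM of the cytoskeleton. Of the 19, 10 were at 1 or more in both COR-L311 and NCI-H526: SYP, SYN1, SYT5, SYT11, RIMS2, CPLX2, ELAVL3, CELF3, MYT1 and NEFL. Set against the range of the 10 other lines, NCI-H211 lay below all of them for 29 of 37 genes, STMN4 being left out as too low, where it did so for 12% of all genes. NCI-H1048 did so for 22 (7.83% of all genes), NCI-H526 for 6 (6.45%) and COR-L311 for 5 (8.7%).

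**Figure D1:**
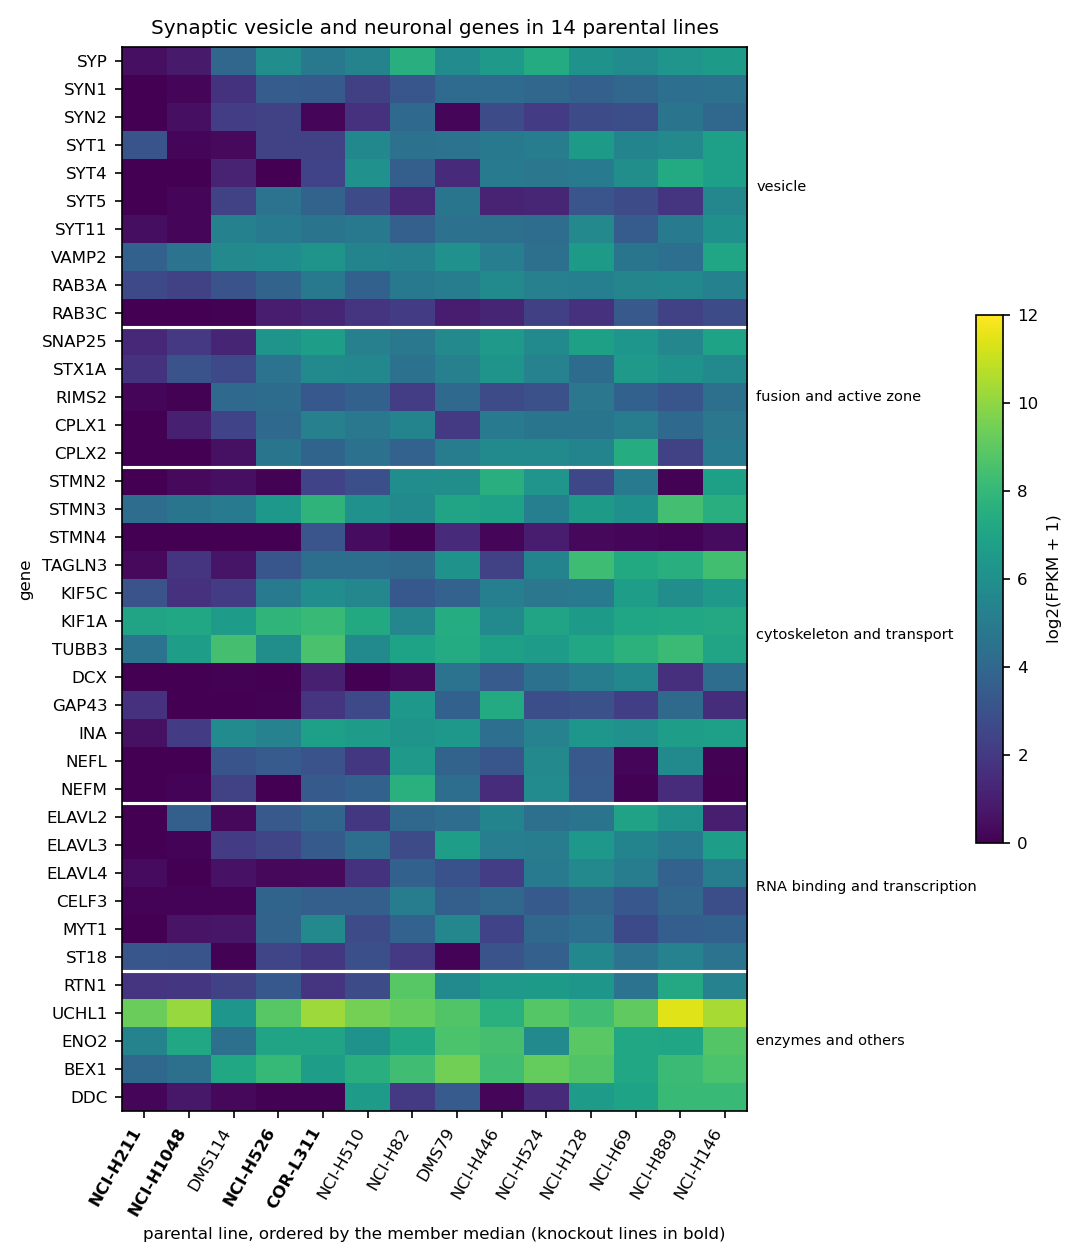
Level of each of the 38 genes, as log2(FPKM + 1) by colour, in the 14 parental lines, 1 library each, with lines ordered from left to right by their median over the genes and genes grouped by role. NCI-H211, NCI-H1048 and DMS114 at the left are dark over most rows. UCHL1, KIF1A, ENO2 and TUBB3 are at an FPKM of 20.22 or more in every line.

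The 4 knockout lines were compared with the 10 others by limma on log2(FPKM + 1), with Benjamini-Hochberg adjustment over the 13226 genes tested. At an adjusted p under 0.05, 0.212% of all genes were higher and 0.0378% were lower in the 4 lines, POU2F3 among the higher ones (difference 7.96, SE 0.29, adjusted p = 9.05e-11). None of the 37 neuronal genes tested passed in limma. STMN4 was too low to be tested. The estimates nevertheless lay below 0 for 35 of 37, with a median of -1.73 on the log2 scale against -0.003 over all genes. At an unadjusted p under 0.05, 20 of 37 were lower and 0 higher, where 4.06% of all genes were lower and 4.6% higher. The library of DMS114 bore on these counts: it was the lowest of the 10 other lines for 24 of the 38 genes. Without DMS114, 4 genes passed in limma, namely ELAVL4 (-3.69, adjusted p = 0.0222), ELAVL3 (-3.78, adjusted p = 0.0378), SYT4 (-4.49, adjusted p = 0.0361) and SYT1 (-3.43, adjusted p = 0.00807). Without NCI-H526, BEX1 alone passed (-3.22, adjusted p = 0.0294), and without DMS79, SYT4 alone (-4.46, adjusted p = 0.047). Over the same 13226 genes, 18 were lower and 30 higher without DMS114. Without NCI-H526 11 were lower and 18 higher, and without DMS79 8 were lower and 35 higher.

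**Figure D2:**
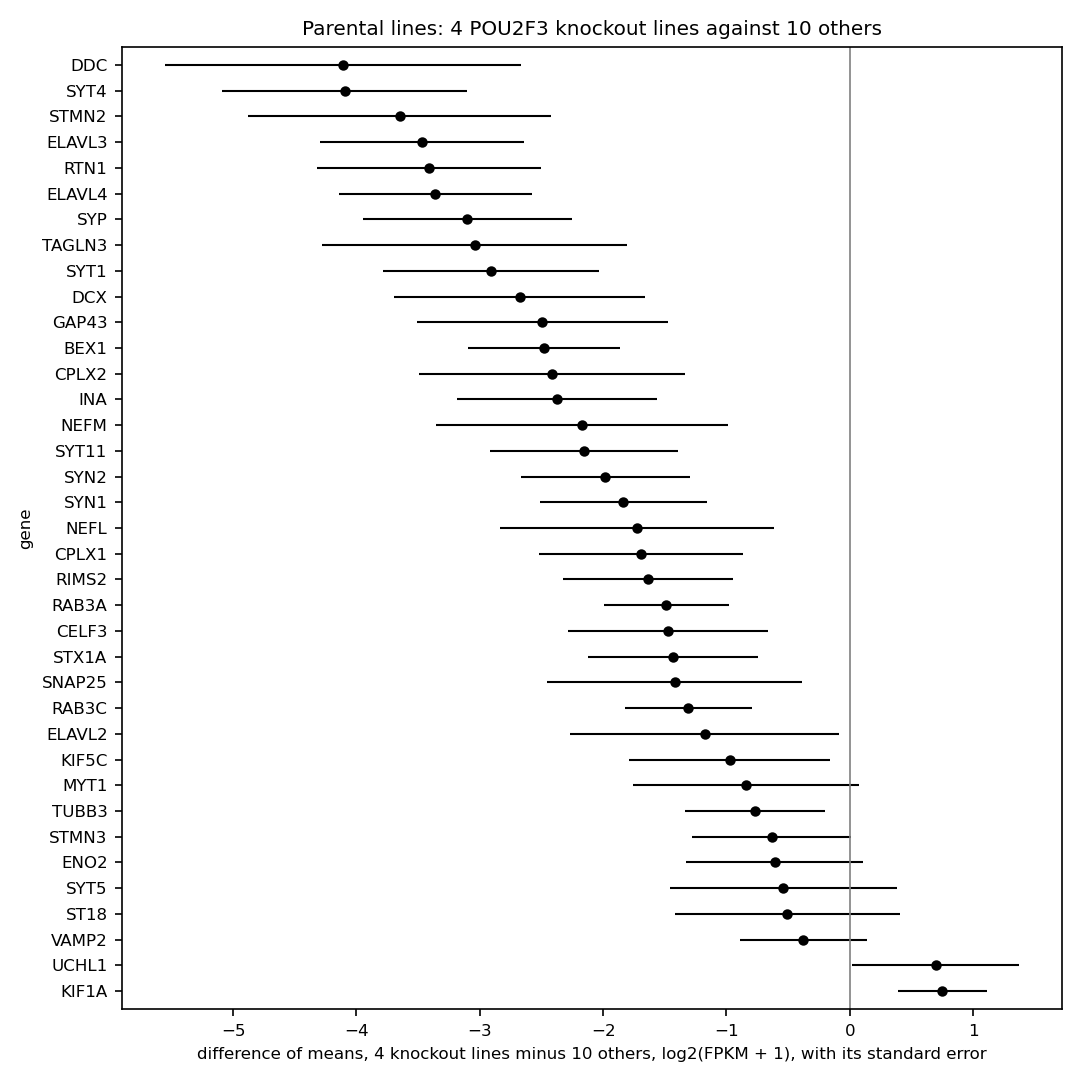
Difference in mean log2(FPKM + 1) between the 4 knockout lines and the 10 other parental lines for the 37 genes tested, with the standard error from limma as a bar. All points except UCHL1 and KIF1A lie left of 0, and none passed the adjusted threshold.

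SYP encodes synaptophysin, an abundant membrane protein of synaptic vesicles that pathologists stain to identify neuroendocrine tumours. Its FPKM was 27.97 in COR-L311, 57.98 in NCI-H526, 0.8063 in NCI-H1048 and 0.424 in NCI-H211, and the 10 other lines ran from 14.43 in DMS114 through a median of 72.6 to 184.7 in NCI-H82. NCI-H1048 and NCI-H211 thus lay below every other line and the remaining pair within their range, with a difference of -3.10 (SE 0.85, limma adjusted p = 0.19). SYT1, the calcium sensor of fast release, was at 4.191 in COR-L311, 4.15 in NCI-H526, 7.742 in NCI-H211 and 0.1461 in NCI-H1048, against 0.2321 in DMS114 and a median of 37.05 to a maximum of 107.9 among the others. It was the only gene of the vesicle group other than VAMP2 and RAB3A that NCI-H211 had above an FPKM of 1. SYT4, an atypical synaptotagmin, was listed at 0 in NCI-H1048 and NCI-H211, was at 0.02296 in NCI-H526 and at 4.313 in COR-L311, and its median in the other lines was 29.61. The difference for SYT4 was -4.10 (SE 0.99, limma adjusted p = 0.11), and 3 of the 4 knockout lines lay below all others.

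SYT5 ran against this order in part. COR-L311 with 13.18 and NCI-H526 with 22.53 FPKM exceeded the median of the other lines, 4.80, whereas NCI-H1048 stood at 0.1506 and NCI-H211 at 0. SYT11, which restrains vesicle uptake, was at 23.51 and 29.16 in COR-L311 and NCI-H526, close to the median of 24.65 in the other lines, and at 0.1675 and 0.3836 in NCI-H1048 and NCI-H211. VAMP2, the vesicle SNARE, was present in all lines, from 12.36 in NCI-H211 to 130.1 in NCI-H146. RAB3A, the main small GTPase of synaptic vesicles, was at 4.236 in NCI-H1048, 5.336 in NCI-H211, 12.94 in NCI-H526 and 27.96 in COR-L311, and at a median of 35.85 in the other lines (difference -1.49, SE 0.51, limma adjusted p = 0.35). Its relative RAB3C did not exceed 1.348 in the 4 lines and reached 9.117 in NCI-H69.

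The synapsins SYN1 and SYN2 coat vesicles and tether them to the cytoskeleton. SYN1 was listed at 0 in NCI-H211 and stood at 0.1593 in NCI-H1048, 10.41 in NCI-H526 and 9.464 in COR-L311, against a median of 14.38 in the other lines (difference -1.84, SE 0.68, limma adjusted p = 0.42). SYN2 was at 0.01589 in NCI-H211, 0.1129 in COR-L311, 0.405 in NCI-H1048 and 4.11 in NCI-H526, and from 0.1713 in DMS79 through a median of 5.90 to 23.79 in NCI-H889 in the others. The first pair lay below all 10 and the second within their range. The promoter of SYN1 was the only one of 29 RefSeq promoters matched to the 38 genes that held an RE1 element, which is the site bound by REST. The search took the letters TTCAGCACC, 2 free bases and GGACAGCGC on both strands, from 250 bases before to 50 bases after the start, with up to 4 mismatches over 18 letters. By that rule 1 of 29 promoters of the neuronal genes held a match (3.45%), as did 127 of 14402 promoters of all genes in the tables (0.882%). The SYN1 match had 1 mismatch and was centred 223 bases before the start (X:47620051-47620107 on the minus strand of GRCh38.p14). It is shown with its flanks as the only match among the 29 promoters, and the capitals mark the element:
SYN1: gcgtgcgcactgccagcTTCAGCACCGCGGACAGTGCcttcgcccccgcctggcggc
A match is only a description of these letters.

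Among the genes of fusion and the active zone, SNAP25, a SNARE of the plasma membrane, was at 104.7 in COR-L311 and 72.08 in NCI-H526, within the upper part of the other lines (median 50.08, highest 124.8). In NCI-H1048 and NCI-H211 it was at 2.967 and 1.501, and DMS114 was lower still at 1.341. STX1A, the partner of SNAP25, showed a like order, with 50.55, 23.14, 7.34 and 2.40 in COR-L311, NCI-H526, NCI-H1048 and NCI-H211. The complexins differed from each other in NCI-H1048, where CPLX1 was at 1.051 and CPLX2 at 0.02112. CPLX2 was listed at 0 in NCI-H211, and in COR-L311 and NCI-H526 it was at 13.4 and 24.46 (difference -2.42, SE 1.08, limma adjusted p = 0.55). RIMS2, a scaffold of the release site, was at 18.2 in NCI-H526, 8.841 in COR-L311, 0.05668 in NCI-H1048 and 0.1342 in NCI-H211, with a difference of -1.64 (SE 0.69, limma adjusted p = 0.51). No gene of this group separated the 4 lines from the 10.

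Among the cytoskeletal genes, STMN2, a microtubule regulator of growing axons, was at 4.393 in COR-L311 and at most 0.2343 in the other 3 knockout lines, and ran from 0.04569 in NCI-H889 to 190.6 in NCI-H446 among the others (difference -3.65, SE 1.23, limma adjusted p = 0.34). STMN3, its relative, was at 18.34 or more in every line. STMN4 was a gene of COR-L311, with 7.978 there and at most 1.687 elsewhere, in DMS79. DCX, which stabilises microtubules in migrating neurons, was at 1.047 in COR-L311 and listed at 0 or 0.003339 in the other 3 knockout lines, and reached 47.42 in NCI-H69 (difference -2.68, SE 1.02, limma adjusted p = 0.46). GAP43, a membrane protein of growth cones, was at 2.485 in COR-L311 and 2.319 in NCI-H211, at 0 in NCI-H1048 and at 0.03958 in NCI-H526, and was also listed at 0 in DMS114 (difference -2.49, SE 1.02, limma adjusted p = 0.49).

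The intermediate filament gene INA was at 108.6 in COR-L311, near the highest of the other lines, 110.1, and at 38.36, 3.28 and 0.4681 in NCI-H526, NCI-H1048 and NCI-H211. The difference for INA was -2.37 (SE 0.81, limma adjusted p = 0.35). NEFL and NEFM, the light and medium neurofilament chains, were under 0.1 in NCI-H1048 and NCI-H211, and also near 0 in NCI-H146, where NEFL was at 0.04054 and NEFM at 0.02553. KIF1A went the other way from most of the genes. It was at 272.8 in COR-L311 and 230.2 in NCI-H526, above all 10 other lines, whose highest was 173.6, and at 141.6 and 126.5 in NCI-H1048 and NCI-H211 (difference 0.75, SE 0.36, limma adjusted p = 0.59). TUBB3 was highest of all 14 lines in COR-L311 at 371.2, next to DMS114 at 346.4, and lowest in NCI-H211 at 22.79. TAGLN3, an actin-binding protein of neurons, was at 19.15 in COR-L311, 8.139 in NCI-H526, 2.547 in NCI-H1048 and 0.2378 in NCI-H211, with a median of 55.73 and a maximum of 324.6 in the others (difference -3.04, SE 1.24, limma adjusted p = 0.49).

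The RNA-binding proteins ELAVL2, ELAVL3 and ELAVL4 (HuB, HuC and HuD) stabilise neuronal transcripts. ELAVL4 was the only one of the 37 genes for which all 4 knockout lines lay below all 10 others, a pattern that 0.25% of all tested genes showed. For 0 of the 37 did all 4 lie above, as they did for 0.401% of all genes. It was at 0.2205 in COR-L311, 0.1817 in NCI-H526, 0 in NCI-H1048 and 0.2714 in NCI-H211, and from 0.4919 in DMS114 through a median of 12.28 to 48.72 in NCI-H128. The difference was -3.36 (SE 0.78, limma adjusted p = 0.0998), with a range of adjusted p from 0.0222 to 0.22 over the alternatives tried. The gap between 0.2714 in NCI-H211 and 0.4919 in DMS114 lies at low values, where a value may rest on a few fragments. ELAVL4 and DDC were under 1 in all 4 knockout lines and entered the fit only through the other lines. ELAVL3 reached 9.432 in COR-L311 and 4.63 in NCI-H526 and was at 0.09539 and 0 in NCI-H1048 and NCI-H211, against a median of 33.34 (difference -3.47, SE 0.83, limma adjusted p = 0.11). ELAVL2 broke the pattern of NCI-H1048, where it was at 11.29, close to COR-L311 at 14.07 and NCI-H526 at 9.172, and was at 0 in NCI-H211. The splicing regulator CELF3 was at 11.32 and 13.36 in COR-L311 and NCI-H526, near the median of 11.49 in the others, and at 0.07341 and 0.06876 in the other pair.

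The zinc finger factors MYT1 and ST18 are related to each other and act in neuronal differentiation. MYT1 was at 49.04 in COR-L311, above every other line, and listed at 0 in NCI-H211. ST18 was present in all 4 knockout lines, with 2.861 in COR-L311, 4.644 in NCI-H526, 7.634 in NCI-H1048 and 8.368 in NCI-H211, so that the pair poor in the vesicle genes had more of it than the pair rich in them. Among the enzymes and others, RTN1, a reticulon of the endoplasmic reticulum, was low in all 4 lines, with 2.494 to 8.729 against a median of 65.83 (difference -3.41, SE 0.91, limma adjusted p = 0.17). BEX1 was at 103.6, 258.2, 20.58 and 15.42 in COR-L311, NCI-H526, NCI-H1048 and NCI-H211, and from 144.7 to 702 in the others (difference -2.48, SE 0.61, limma adjusted p = 0.12). DDC did not exceed 0.7076 in the 4 lines (difference -4.11, SE 1.45, limma adjusted p = 0.38). It was equally low in NCI-H446 at 0.1343 and DMS114 at 0.2044. UCHL1 was at 467.8 to 1217.9 in the 4 lines and at a median of 495.2 in the others.

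REST and INSM1 were read beside these levels. REST was highest in the 3 lines with the lowest neuronal medians, at 14.45 in NCI-H1048, 14.01 in DMS114 and 8.77 in NCI-H211. NCI-H526 was next at 3.084, 9 other lines were under 2, with a highest value of 1.639, and COR-L311 was at 0.1752. INSM1 was lowest in the same 3 lines, at 0.80 in DMS114, 1.77 in NCI-H1048 and 4.55 in NCI-H211, then at 13.97 in NCI-H82, 78.98 in COR-L311 and 98.38 in NCI-H526. NEUROD1 was at most 0.4002 in the 4 knockout lines. YAP1, a transcriptional co-activator of the Hippo pathway, was at 33.68 in DMS114 and 9.386 in NCI-H1048. The points fall in separate groups of lines, so no correlation was computed, and the part of REST in the neuronal gene levels was not tested.

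**Figure D3:**
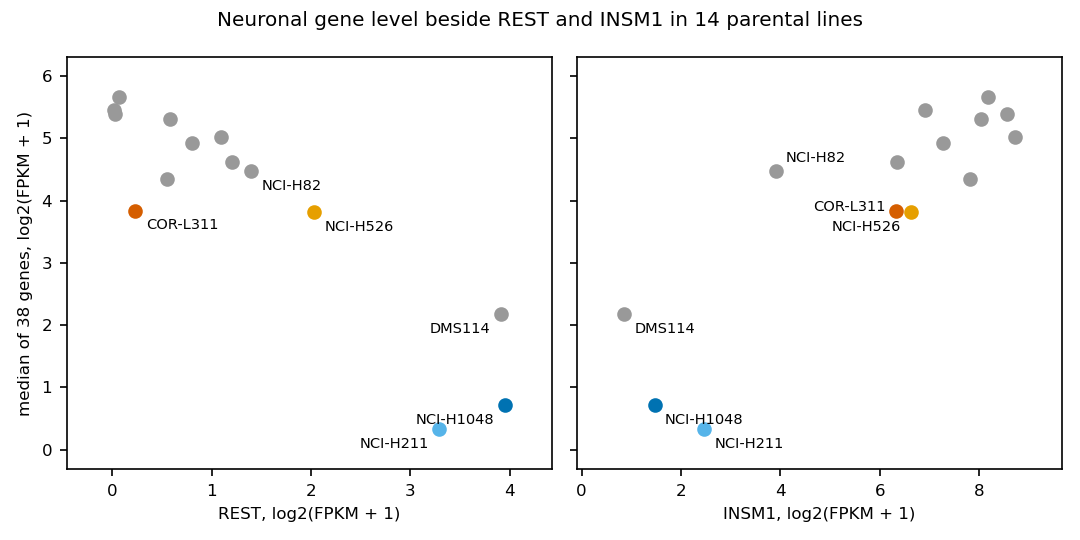
Median log2(FPKM + 1) of the 38 genes against the level of REST (left) and INSM1 (right), both on log2(FPKM + 1), 1 point per parental line, with coloured points for the 4 knockout lines and grey for the 10 others. NCI-H1048, NCI-H211 and DMS114 combine the highest REST, the lowest INSM1 and the lowest medians.

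Lists of related genes not among the 38, also chosen with earlier results of these data known, were read from the same fit. At an unadjusted p under 0.05 in limma, 4.06% of all genes were lower and 4.6% higher. Of 37 other presynaptic genes tested, 11 were lower and 0 higher at that level, and 0 passed after adjustment (median -0.81). The smallest p belonged to AMPH, which acts in vesicle endocytosis, at 0 to 0.1716 FPKM in the 4 lines and 1.528 or more in the others (difference -3.62, SE 0.79, limma adjusted p = 0.0742). AMPH too entered the fit only through the other lines. SYT14 (-1.50), a further synaptotagmin, was also among the 11. Of 32 other cytoskeletal, transport and adhesion genes 6 were lower and 0 higher, led by the microtubule proteins MAP1B (-2.14), and with SEZ6L2 (-2.43), GDAP1 (-1.41) and MAP1A (-1.46). Of 13 further neuronal RNA-binding proteins 1 was lower, SRRM4, the splicing factor of neural microexons (-2.34, SE 0.66, limma adjusted p = 0.21). Of 18 neurogenic and neuroendocrine factors 3 were lower, ISL1 (-3.20) and MYT1L (-1.39) among them. In contrast, 21 widely expressed relatives of the exocytosis and cytoskeletal genes had 1 higher, UCHL3 (0.99), and 1 lower, STX2 (-0.75), and a median of -0.10. STMN1 stands in both this list and the cytoskeletal one. Of 6 repressors of neuronal genes 0 passed either threshold, REST included (1.41, SE 0.70, limma adjusted p = 0.61).

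Knockout was read first from POU2F3 itself. Its FPKM was 271.6 with sgNeg and 218.2 with sgPOU2F3 in COR-L311, which left 80.35% of the control level. NCI-H526 went from 501.2 to 203.8 (40.67%), NCI-H1048 from 198.4 to 60.84 (30.66%) and NCI-H211 from 307.2 to 21.34 (6.946%). Across the 4 lines the log2 ratio of POU2F3 was -1.77 ± 1.46 (SD, n = 4), with an adjusted p of 0.40 by limma. A transcript edited by a guide may still be made, so the RNA level does not measure the loss of protein, and COR-L311 in particular kept most of the transcript.

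No neuronal gene passed in the fit across the 4 lines, in which each ratio was formed within a line. Of the 12387 genes tested by limma, 2 were higher (0.0161%) and 0 lower at an adjusted p under 0.05, and without any 1 of the 4 lines 0 were higher. At an unadjusted p under 0.05, 1456 genes passed, 4.67% of all genes as higher and 7.08% as lower. Of the 28 neuronal genes tested, 3 passed this looser level as higher (SYT1, SNAP25 and BEX1) and 2 as lower (RAB3A and KIF1A). The other 10 of the 38 were too low to be tested across lines: SYN2, SYT4, RAB3C, STMN2, STMN4, ELAVL4, DDC, DCX, GAP43 and NEFM. The median estimate of the 28 was 0.13, against -0.016 over all genes, and was -0.02 without COR-L311. Among the genes tested, SYT1, SNAP25 and SYT5 had a higher value with sgPOU2F3 than with sgNeg in all 4 lines, where 9.81% of all genes did, and RAB3A, CPLX1, UCHL1 and KIF1A had a lower one, where 12.9% did.

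RAB3A had the smallest p of the 28. With sgNeg it was at 25.99 FPKM in COR-L311, 16.39 in NCI-H526, 7.799 in NCI-H1048 and 5.343 in NCI-H211, and with sgPOU2F3 at 15.45, 9.89, 4.691 and 1.392 in the same order. The sgPOU2F3 value was below sgNeg in each line, by a mean log2 ratio of -0.86 ± 0.37 (SD, n = 4; limma adjusted p = 0.34). SNAP25 was at 90.81, 62.67, 4.009 and 0.4678 with sgNeg and at 120.8, 86.02, 4.481 and 2.181 with sgPOU2F3, the lines in that order again. Its mean log2 ratio was 0.53 ± 0.42 (SD, n = 4; limma adjusted p = 0.40). SYT1 stood at 3.614 and 7.869 in COR-L311, 0.1161 and 0.3331 in NCI-H1048, 8.85 and 10.47 in NCI-H211 and 4.858 and 8.284 in NCI-H526 (sgNeg and sgPOU2F3), a mean of 0.52 ± 0.35 (SD, n = 4; limma adjusted p = 0.40). For all 3 genes the ranges of the sgNeg and sgPOU2F3 values over the 4 lines overlapped.

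BEX1 had a mean of 0.47 ± 0.47 (SD, n = 4; limma adjusted p = 0.42), with NCI-H526 just below 0 at -0.06. KIF1A was at 203.9 and 185.3 FPKM in COR-L311, 123 and 112.5 in NCI-H1048, 104.1 and 67.54 in NCI-H211 and 197.9 and 167.1 in NCI-H526, a mean of -0.28 ± 0.23 (SD, n = 4; limma adjusted p = 0.42). CPLX1 had a mean ratio of -0.48, CELF3 of 0.83, RIMS2 of 0.36, UCHL1 of -0.23 and ENO2 of -0.31, all with an adjusted p of 0.44 or more in limma. The next by p were INA (0.27), SYT5 (0.32), TAGLN3 (0.63), VAMP2 (-0.16), STX1A (0.15), STMN3 (-0.19), RTN1 (0.27), SYT11 (0.30) and CPLX2 (0.14). Without NCI-H211 the estimate for STMN3 was 0.01, and without COR-L311 those for RTN1 and SYT11 were -0.002 and -0.06, so the signs of these 3 rested on 1 line each.

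**Figure D4:**
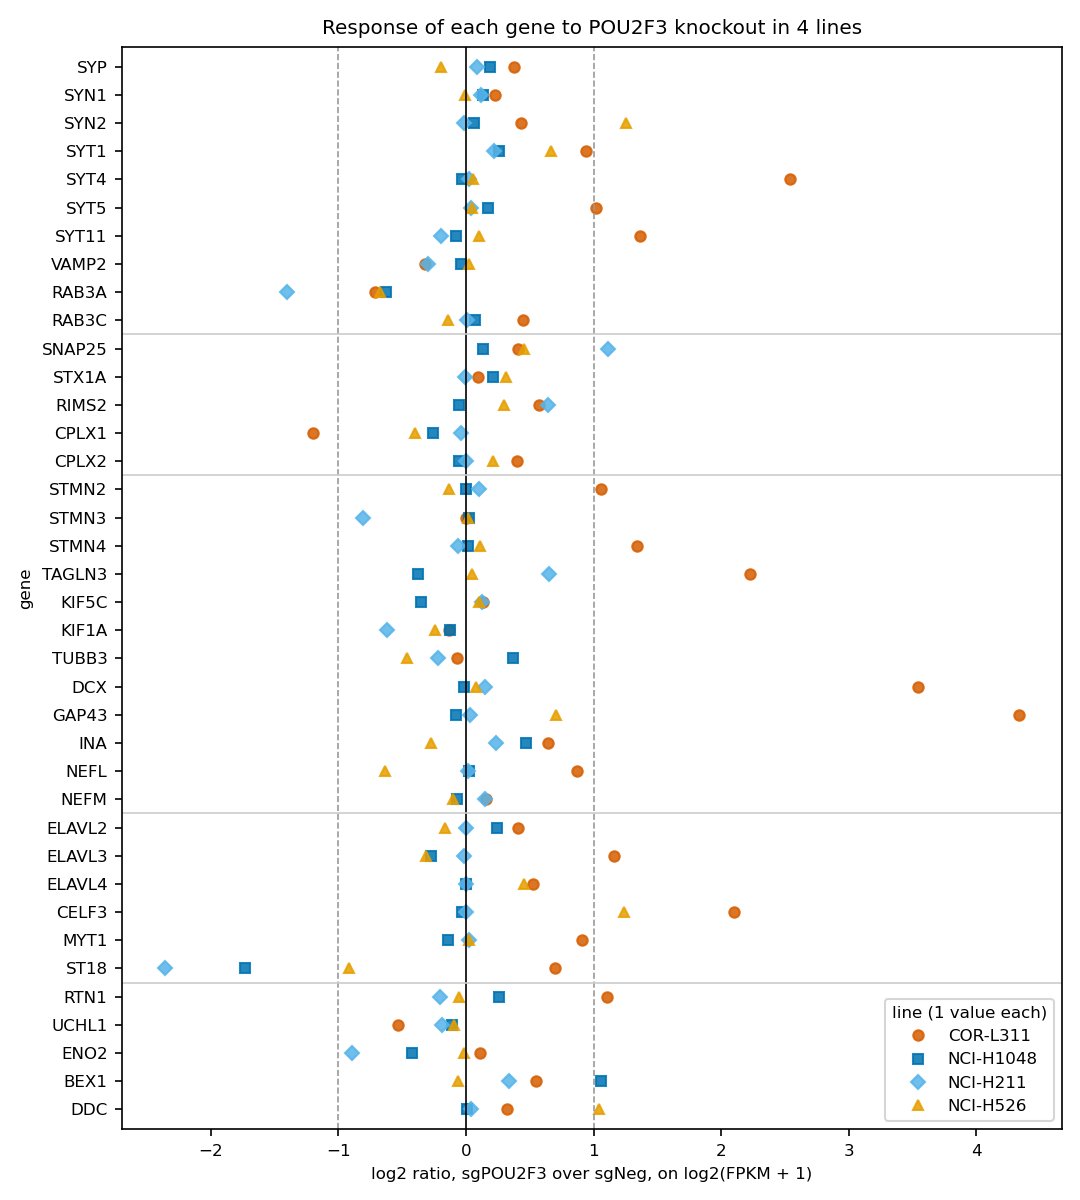
Log2 ratio of sgPOU2F3 over sgNeg on log2(FPKM + 1) for the 38 genes, 1 point per line and gene, with dashed lines at a 2-fold ratio. The points beyond the right dashed line are mostly those of COR-L311, led by GAP43 at 4.34 and DCX at 3.54, and ST18 in NCI-H211 and NCI-H1048 lies farthest to the left.

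Within lines, genes were counted by size, a ratio of 2-fold or more on log2(FPKM + 1) among genes at an FPKM of 1 or more in either column. This count has no replicate check. A gene under 1 with sgNeg qualified only through sgPOU2F3, so it could count as higher but not as lower. Of the genes past 2-fold, this held for GAP43, DCX, STMN2 and RTN1 in COR-L311, DDC in NCI-H526 and SNAP25 in NCI-H211. ST18 in NCI-H1048 was the reverse, under 1 with sgPOU2F3 only. The same rule was applied to all genes. In COR-L311, 11 of the 35 neuronal genes that qualified were higher with sgPOU2F3, where 4.28% of all genes were, and 1 was lower, where 2.12% were. Their median log2 ratio was 0.55, against -0.02 over all qualifying genes. In NCI-H526, 3 of 30 were higher (2.05% of all genes) and 0 lower (0.496%), in NCI-H1048 1 of 19 was higher (1.2%) and 1 lower (1.03%), and in NCI-H211 1 of 16 was higher (6.86%) and 2 lower (4.83%). The medians in these lines were 0.002, 0.03 and -0.20. In all, 18 of the 37 neuronal genes that qualified in some line reached the 2-fold ratio in either direction there, where 16.3% of all genes did.

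The 2 largest ratios in COR-L311 were those of GAP43 and DCX. GAP43 went from 0.539 to 30.1 FPKM and DCX from 0.245 to 13.5. TAGLN3 went from 6.58 to 34.4, STMN4 from 2.87 to 8.80 and STMN2 from 0.321 to 1.75. Of the vesicle genes, SYT4 went from 1.99 to 16.4, SYT11 from 16.0 to 42.7 and SYT5 from 3.73 to 8.57. Of the RNA-binding proteins, CELF3 went from 3.76 to 19.4 and ELAVL3 from 2.07 to 5.87, and RTN1 went from 0.594 to 2.42. CPLX1 was the 1 lower gene, at 41.3 with sgNeg and 17.4 with sgPOU2F3. Of the 8 vesicle and fusion genes at an FPKM of 10 or more with sgNeg in COR-L311, CPLX1 (log2 ratio -1.20) and SYT11 (1.36) were the 2 past 2-fold. RAB3A was at -0.71, and SYP, SNAP25, STX1A, VAMP2 and CPLX2 lay between -0.32 and 0.41.

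The control column of COR-L311 was itself low for many of these genes. The parental library of the same line, from a separately normalized table, held more of 8 neuronal genes than sgNeg by 2-fold or more, where 2.39% of all genes did: SYT5, STMN2, STMN4, ELAVL3, CELF3, RTN1, TAGLN3 and GAP43. This comparison and that of the knockout share the sgNeg column, so the values stand side by side. For STMN2 they were 4.39 in the parental line, 0.321 with sgNeg and 1.75 with sgPOU2F3, for SYT5 13.2, 3.73 and 8.57, and for ELAVL3 9.43, 2.07 and 5.87. The sgPOU2F3 values of these genes lay below the parental value and above that of sgNeg. TAGLN3 stood at 19.2, 6.58 and 34.4, CELF3 at 11.3, 3.76 and 19.4, and STMN4 at 7.98, 2.87 and 8.80. SYT4, DCX and GAP43 were the 3 of the 11 that exceeded both the sgNeg and the parental value by 2-fold or more, where 2.75% of all genes did. GAP43 was at 2.49 in the parental line and DCX at 1.05. With the parental library in place of sgNeg, a reference chosen after the data were seen, the count of higher genes in COR-L311 was 4 of 35 (7.21% of all genes) and that of lower genes 2 (4.36%). Which of the 2 reference libraries is nearer to the state of the line without knockout was not tested.

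**Figure D5:**
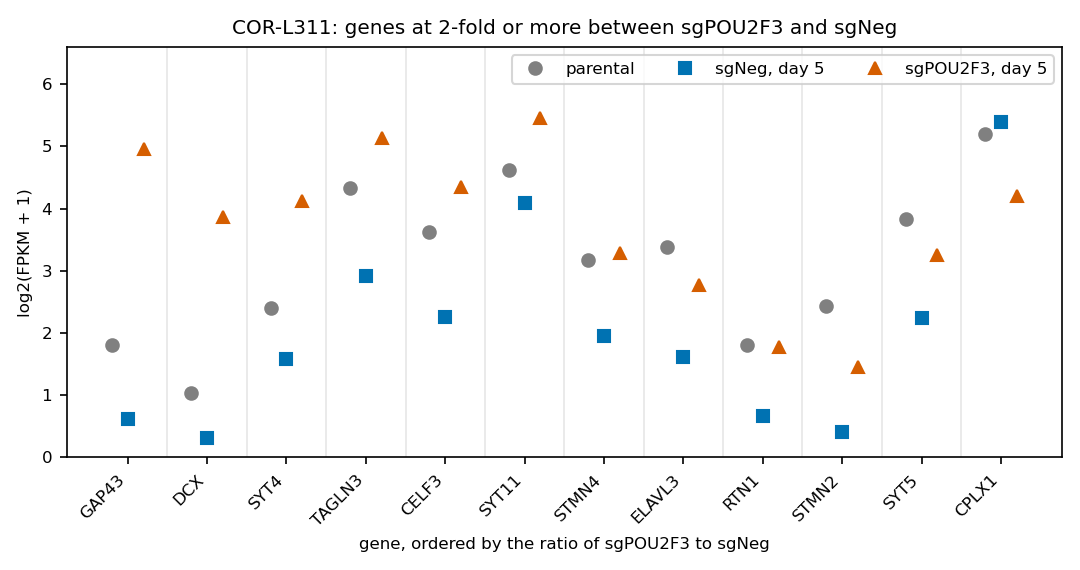
Level in COR-L311 as log2(FPKM + 1) of the 12 genes at a 2-fold ratio or more between sgPOU2F3 and sgNeg, in the parental library (circles), sgNeg (squares) and sgPOU2F3 (triangles), 1 value each, the parental values from a separately normalized table. Only GAP43, DCX and SYT4 have a triangle 1 unit or more above both other symbols.

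TAGLN3 was also the gene with the most E-boxes among the promoters matched. E-boxes are the letters bound by neurogenic bHLH factors such as NEUROD1, and the search on both strands covered CAGATG and CAGCTG. The first stood in 24.1% of the 29 neuronal promoters and in 11.5% of the 14402 promoters of all genes, and the second in 20.7% and 17.7%. The octamer ATGCAAAT, the letters bound by POU2F factors, was in 0 of the 29 and in 1.53% of all. The 250 bases before the TAGLN3 start (3:111998672-111998921 on the plus strand of GRCh38.p14) held 2 E-boxes of the first kind and 1 of the second, in capitals, and are printed for that reason:
TAGLN3: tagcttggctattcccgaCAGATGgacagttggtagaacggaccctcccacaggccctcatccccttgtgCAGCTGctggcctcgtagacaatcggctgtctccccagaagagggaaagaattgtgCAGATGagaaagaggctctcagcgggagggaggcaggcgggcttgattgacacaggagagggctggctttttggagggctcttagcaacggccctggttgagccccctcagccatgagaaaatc
Of the other higher genes in COR-L311 with a promoter matched, SYT5, SYT11 and CELF3 held 1 E-box each. GAP43, DCX, SYT4 and RTN1 held 0. In NCI-H526, TAGLN3 was at 8.294 with sgNeg and 8.579 with sgPOU2F3. The tables hold no measure of binding at these letters, and the part of E-boxes in the ratios was not tested.

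In the other lines few of the genes passed the 2-fold ratio. In NCI-H526, SYN2 went from 3.25 to 9.13, CELF3 from 12.6 to 31.0 and DDC from 0.0407 to 1.14. CELF3 was the only 1 of the 38 higher by 2-fold in more than 1 line, COR-L311 and NCI-H526. In NCI-H1048, BEX1 went from 22.8 to 48.6. SNAP25 in NCI-H211, at 0.468 and 2.18, started far below its level in COR-L311 and NCI-H526 and remained below it. The 19 genes that stayed under an FPKM of 1 in parental NCI-H211 and NCI-H1048 alike were read again after knockout, and 17 were under 1 with sgPOU2F3 in both lines. The other 2 were SYP, at 0.804 and 1.05 in NCI-H1048, and SYN2, at 0.992 and 1.08 there. In NCI-H211 all 19 were under 1 with sgPOU2F3, RIMS2 at 0.742 against 0.117 with sgNeg.

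ST18 had the lowest ratios of all 38 genes. It went from 4.34 to 0.608 in NCI-H1048 and from 9.47 to 1.04 in NCI-H211. In NCI-H526 it went from 10.9 to 5.30, but COR-L311 had 4.35 with sgNeg and 7.70 with sgPOU2F3. The mean log2 ratio was -1.08 ± 1.33 (SD, n = 4; limma adjusted p = 0.44), and its sign differed between lines. In NCI-H526 the sgNeg value of 10.9 was itself over 2-fold above the parental 4.64. TUBB3 was the other of 2 neuronal genes for which this held, where 2.84% of all genes did, with 59.7 in the parental line, 271.7 with sgNeg and 196.4 with sgPOU2F3. The values just inside the 2-fold line were those of SYT5 (1.01), STMN2 (1.06), RTN1 (1.10) and ELAVL3 (1.16) in COR-L311, DDC (1.04) in NCI-H526, BEX1 (1.06) in NCI-H1048 and SNAP25 (1.12) in NCI-H211. Just outside it were SYT1 (0.94), MYT1 (0.91) and NEFL (0.87) in COR-L311, ST18 (-0.92) in NCI-H526, and ENO2 (-0.89) and STMN3 (-0.81) in NCI-H211.

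Regulators of these genes were read in the same columns. NEUROD1 was at 0.174 (COR-L311) and 0.107 (NCI-H526) with sgNeg and at 13.8 and 11.6 with sgPOU2F3, and NCI-H1048 and NCI-H211 had it at 0 with either. INSM1 was higher with sgPOU2F3 in the same pair, 165 against 50.7 in COR-L311 and 138 against 80.7 in NCI-H526, and lower in the other, 1.46 against 4.90 in NCI-H1048 and 1.24 against 5.93 in NCI-H211. The 2 lines in which NEUROD1 was detected after knockout were those that held more of the 38 genes at the start. REST was at 18.7 and 22.3 in NCI-H1048, 14.2 and 14.6 in NCI-H211, 5.34 and 3.47 in NCI-H526 and 0.736 and 0.423 in COR-L311. HES1, a repressor of proneural genes, stood at 5.26 and 49.7 in NCI-H1048, 1.23 and 37.7 in NCI-H211, 2.72 and 6.95 in NCI-H526, and 13.4 and 10.6 in COR-L311, sgNeg before sgPOU2F3 (mean log2 ratio 1.98, limma adjusted p = 0.40). YAP1 stood at 1.33 and 55.9 in NCI-H211 and at 14.6 and 27.6 in NCI-H1048.

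Of the related gene lists outside the 38, 0 genes passed the adjusted threshold across lines. At an unadjusted p under 0.05 in limma, 4.67% of all genes were higher and 7.08% lower. Other presynaptic genes had 0 higher and 1 lower of 30 tested, SYNGR3 (-0.79). Other cytoskeletal, transport and adhesion genes had 2 higher and 4 lower of 30, with DCLK1 (-0.48), MAPT (-0.46), DPYSL3 (-0.80) and L1CAM (0.44) the first 4. The neuronal RNA-binding proteins had 0 of 9, the neurogenic factors 1 higher (SOX2, 0.48) and 1 lower (POU4F1, -0.43) of 5, and the widely expressed relatives 1 lower of 21, ELAVL1 (-0.28). The repressors of neuronal genes had 1 higher of 6, HES1 (1.98), and 0 lower. Within lines, the lists were counted by the same 2-fold ratio, with no test. In COR-L311, where 4.28% of all genes were higher and 2.12% lower, 5 of 33 other presynaptic genes were higher (RIMS1, CADPS, SYN3 and SLC18A1 among them) and 1 lower. Of the cytoskeletal and adhesion genes 8 of 32 were higher there, among them MAP1B and NCAM1, of the RNA-binding proteins 2 of 12, and of the neurogenic factors 6 of 13 (NEUROD1, NEUROD4, INSM1, NKX2-2, MYT1L and NHLH1), with 0 lower in each. In NCI-H526, 2.05% of all genes were higher and 0.496% lower. The neurogenic factors had 3 of 10 higher there (NEUROD1, NEUROG2 and NHLH1) and 0 lower, and the other presynaptic genes 0 of 33 in either direction. In NCI-H211, where 6.86% of all genes were higher and 4.83% lower, 3 of 4 neurogenic factors were lower (INSM1, POU3F2 and PROX1), as were 3 of 19 presynaptic genes (SV2A, RIMBP2 and DOC2B) and 3 of 20 cytoskeletal genes (CRMP1, STMN1 and NCAM1). The presynaptic gene CADPS2 was the 1 higher gene of these 3 lists there. In NCI-H1048, 1.2% of all genes were higher and 1.03% lower. No presynaptic gene of 21 reached the ratio there, and 3 of 28 cytoskeletal genes (MAP2, DPYSL3 and DCLK2) and 2 of 7 neurogenic factors (INSM1 and PROX1) were lower. The repressor HES1 was higher in NCI-H1048, NCI-H211 and NCI-H526, and the widely expressed relatives had 1 of 20 past 2-fold in COR-L311 and 3 of 23 in NCI-H211. STMN1 is counted in NCI-H211 both there and among the cytoskeletal genes.

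The summed neuroendocrine marker level also differed between the arms. It was 395.8 with sgNeg and 818.1 with sgPOU2F3 in COR-L311, 262.3 and 351.3 in NCI-H526, 51.05 and 32.85 in NCI-H1048, and 92.37 and 35.86 in NCI-H211. These sums include INSM1 and NCAM1, both already named. NCAM1 was at 113 and 357.5 in COR-L311 and 75.76 and 91.59 in NCI-H526. In NCI-H1048 it was at 45.08 and 30.9, and in NCI-H211 at 57.14 and 15.4. The number of markers at an FPKM of 1 or more stayed at 2 in NCI-H1048 and at 3 in NCI-H211. The tuft cell sum went from 1080.8 to 667.1 in COR-L311, 1371.9 to 712.3 in NCI-H526, 628.6 to 233.3 in NCI-H1048 and 1031.4 to 112.8 in NCI-H211. That sum includes the targeted gene POU2F3, so part of its fall is the fall of POU2F3. Sums of fibroblast, leukocyte and endothelial markers were at most 16.32, 7.898 and 1.594 in the 8 knockout columns, and the glial sum, almost all of it MBP, at most 33.8. Their part in the ratios was not tested.

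The pair of day 5 lines was set against the pair of day 4 lines by a limma test on the ratios themselves. At an adjusted p under 0.05 this test called 0 of 12387 genes (0%), at an unadjusted p under 0.05 it passed 682 (5.51%), and among the 28 neuronal genes it called 0 and passed 3 at the unadjusted level. These were CELF3 (difference of log2 ratios 1.69, SE 0.37, adjusted p = 0.78), ENO2 (0.71, SE 0.24, adjusted p = 0.83) and ST18 (1.94, SE 0.56, adjusted p = 0.83), all with the higher ratio in COR-L311 and NCI-H526. Without NCI-H1048 the same test called 210 genes as higher and 278 as lower and without NCI-H211 7 and 4, in each case with a lone line in 1 arm that was assumed to vary like the others. No neuronal gene was among those called. The harvest day and the line cannot be told apart in this design.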

How the data were processed

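PolyA RNA libraries were made with a TruSeq kit that keeps no strand, per the labels' protocols, so reads of overlapping genes on opposite strands cannot be told apart. The authors deposited FPKM values in 5 tables, 1 per knockout line and 1 for the 14 parental lines, which the labels call RPKM. The submitters' processing notes name TopHat2, Cufflinks, Cuffdiff and the build hg19. Their versions and roles, the annotation and the way the 2 guides were combined are not given in the sources used here. All 12 knockout and 14 parental libraries were mapped to groups by their titles.

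The 38 genes and the other gene lists were chosen with earlier results of these data known, and the grouping by role was made after the data were seen. Values were taken as log2(FPKM + 1), which understates the change of low genes. Differences between groups were tested by limma (3.58.1, R 4.3.3), letting the prior variance follow the mean level, with Benjamini-Hochberg adjustment over all genes tested and a threshold of 0.05. A gene entered a fit when 4 or more columns had an FPKM of 1 or above. The knockout fit used line and arm as terms (3 residual degrees of freedom), the parental fit 4 against 10 lines (12), and the day test the 4 ratios (2). The p-values measure the spread between lines, which are not replicates of 1 culture. Each fit was tested on simulated data that held changes of known size. The parental fit recovered 13.9% of changes of 1 on the log2 scale, 71.2% of 2 and 82.6% of 3, so it misses many smaller differences. The knockout fit recovered 64.6% of changes of 1 and 92.1% of 2. In both simulations the changed genes had a mean log2(FPKM + 1) above 3, and each change had the same size in every line. These shares therefore do not cover lower genes or changes that differ between lines, as that of POU2F3 did. The simulation of the day test used a noise set in advance, not the spread of the data, so it does not measure the power of that test here. Within a line, genes were counted by a 2-fold ratio with no test.

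Depth estimates rest on the smallest FPKM steps of single-transcript genes and on GENCODE transcript lengths (GRCh38, not the hg19 build of the tables). Promoter sequences are from RefSeq on GRCh38.p14, which matched 29 of the 38 genes. All 38 genes were measured and plotted. The text names those past the threshold or the 20 with the smallest p in a fit, those at 2-fold within a line, the 5 highest and 5 lowest medians, 4 genes of each other list, and POU2F3, NEUROD1, INSM1, REST and YAP1. A few genes that this rule names are not reported here, though the counts of their lists include them. Other genes and values are named as examples and were chosen after their values were seen. Alternatives were another pseudocount, other filters, no trend, quantile normalization, centred ratios, no line term, another fold and leaving out each line.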

Additional observations from a re-analysis of the deposited data

Results flagged for a closer look

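For each gene, the 4 knockout lines' parental levels, the 10 other lines' levels and the 4 knockout ratios were searched for a line far from the rest of its group, by the gap to its nearest neighbour as a share of the group's range. This marked 20 of 114 groups. The rule is set to mark about 1 in 20 by chance, but that rate need not hold here. In some groups most lines lie at or near 0, as in the parental levels of SYT4 and DCX. The groups also share lines, so the count is a description and not a test. COR-L311 was the distant line in 10 of the 20.

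Among the knockout ratios (log2 scale), COR-L311 stood apart from the other 3 lines for DCX (3.54), SYT4 (2.54), STMN4 (1.34), SYT5 (1.01) and MYT1 (0.91), in each case as the highest. NCI-H211 stood apart as the lowest for RAB3A (-1.41) and STMN3 (-0.81), and NCI-H1048 for KIF5C (-0.35). Among the parental levels of the 4 knockout lines, as log2(FPKM + 1), COR-L311 stood apart as the highest for NEFM (3.38), STMN4 (3.17), STMN2 (2.43), SYT4 (2.41) and DCX (1.03). NCI-H526 did so for RTN1 (3.28) and NCI-H1048 for DDC (0.77). NCI-H211 stood apart as the lowest for ELAVL2 (0.00) and ENO2 (5.35). Among the 10 other parental lines, DMS114 stood apart as the lowest for SNAP25 (1.23), SYT1 (0.30) and CELF3 (0.14).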

How the results depend on the processing

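The knockout fit pairs the arms by line, as a term. By replicate number, no paired analysis was possible because the sgNeg libraries carry no such number and both guides stand in 1 combined column. Of 622 recomputed values for named genes, 3 changed sign and 8 newly passed the threshold, all 8 in the parental comparison. The 3 were STMN3 without NCI-H211 (0.0116; leaving out each line in turn gave -0.27 to 0.0116), and RTN1 (-0.0019; -0.0019 to 0.43) and SYT11 (-0.0601; -0.0601 to 0.46) without COR-L311. With a pseudocount of 0.1, ELAVL4 (-5.37, adjusted p = 0.0298) and SYT4 (-6.43, adjusted p = 0.0481) passed in limma, 2 neuronal genes in all. Leaving out a line gave 0 to 4 neuronal genes as lower. Over all genes, the parental count of lower genes was 5, 13 at the pseudocount of 0.1, 3 without a filter, and 3 to 18 when a line was left out, and that of higher genes was 28, and 18 to 42 when a line was left out. In the knockout fit the 2 higher genes became 0 with a pseudocount of 0.1, no filter, no trend, no line term or without any 1 line, and 1 with quantile normalization. The day test called 0 to 210 genes as higher and 0 to 278 as lower when a line was left out. The causes were not tested. Within lines, the COR-L311 count of 11 higher genes was 6 under the filter of the fit across lines and 4 against the parental library, and its 1 lower gene became 2 at 1.5-fold or against the parental library. At 1.5-fold the lower counts became 5 in NCI-H211, 3 in NCI-H526 and 2 in NCI-H1048. At an FPKM of at least 5 the lower count of NCI-H1048 and the higher count of NCI-H211 became 0. The filter of the fit across lines left 1 higher gene in NCI-H526, and a pseudocount of 0.1 gave it 1 lower gene. Against the parental library, NCI-H1048 had 2 higher genes and NCI-H211 had 0. Apart from the COR-L311 counts against the parental library, the shares of all genes under these within-line alternatives are not given here. These counts therefore show only how the settings move them. Depth limits the genes near 0: at the depth of the shallowest library, 0.1 FPKM on a 2 kb transcript is 1.95 fragments, so a low value in 1 arm may be a few fragments.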
